A study of Arabidopsis thaliana with 8 samples.

Results

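The intervals described here are the stretches between annotated genes and transposable elements in the pericentromeres of Arabidopsis thaliana, the gene-poor heterochromatin on either side of each centromere. A line of the deposited tables was taken where its annotation is Intergenic, its length is at least 200 bp and its midpoint lies within 12 to 18 Mb of chromosome 1, 1 to 7 Mb of chromosome 2, 11 to 17 Mb of chromosome 3, 1 to 6 Mb of chromosome 4 or 9 to 15 Mb of chromosome 5 (TAIR10). This gave 6874 of the 51387 nuclear intergenic intervals, which are among 109972 lines in all. They span 7573220 bp, and 10179 shorter pericentromeric intervals were left out. Of the 6874 intervals, 36 (127968 bp) are H3-dense, meaning that their H3 reads per kb in leaf are over 20 times those of the median protein-coding gene, and they are described apart. The other 6838 (7445252 bp) carry the comparisons.

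The study set a Col-0 suspension cell culture beside leaves of wild-type Col-0 plants by ChIP-seq, the sequencing of DNA that an antibody pulls down with its nucleosomes. The culture grew in light in Gamborg's B5 medium with sucrose, MES and 1.1 mg/l of the synthetic auxin 2,4-D, was passed on every 7 d, and was fixed in 1% paraformaldehyde for 15 min. The plants grew on MS agar plates, and the sources used here do not give how leaf tissue was fixed. The 4 antibodies were against histone H3 and against its forms H3K9me2, H3K27me3 and H3K4me3. Each antibody has 1 library per sample type, 8 in all, so no difference between culture and leaf has a replicate check, and no test between them was possible. The culture is 1 cell line, and how many cultures or plants went into a library is not given in the sources used here.

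Dimethylation of H3 at lysine 9 marks silent heterochromatin and is maintained in plants together with DNA methylation. Trimethylation of lysine 27 is set by Polycomb complexes, mostly over silent genes of euchromatin, and trimethylation of lysine 4 marks the starts of active genes. Pericentromeric intervals hold degraded transposons, tandem repeats and sequence that annotation leaves unnamed, and H3K9me2 is the mark known for them in leaves.

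Total reads were 3289359 (H3K9me2), 5672742 (H3K27me3), 3504870 (H3K4me3) and 3128553 (H3) in the culture, and 1825604, 2183580, 2141886 and 1679480 in leaf in the same order. A level below is log2 of mark over H3, each per 1000000 nuclear reads, and a change is the culture's level minus leaf's. The antibodies separated genes from elements in both sample types: summed H3K4me3 levels were 0.49 over protein-coding genes and -0.39 over elements in the culture, and 0.48 and -0.62 in leaf. H3K9me2 levels were -1.26 and 0.76 in the culture, and -1.79 and 1.40 in leaf. The leaf H3 library differed in organelle reads, with 12.2% on the plastid line, against 0.0331% in culture H3. Intervals in brackets after a change are at the 95% level and cover counting error alone, not variation between cultures, plants or immunoprecipitations. A bulk library also cannot tell fewer cells with a mark from less of it in each cell.

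The 6874 intervals were short, with a median length of 666.5 bp (quartiles 414 and 1265 bp) and a longest of 71956 bp. Elements flank 58.5% of them on both sides, against 8.48% of intergenic intervals of the chromosome arms. A gene stands on one side and an element on the other in 32.4%, and genes flank 9.15% on both sides, against 58.6% on the arms. No interval was overlapped by another line. The median interval held 6 H3K9me2, 17 H3K27me3, 7 H3K4me3 and 10 H3 reads in the culture, and 4, 5, 4 and 5 in leaf. Single intervals were therefore tested only with at least 20 mark reads over both libraries and at least 10 reads in each H3 library. By these limits 1288 intervals were tested for H3K9me2, 1593 for H3K27me3 and 1376 for H3K4me3, and 5189 of the 6838 (75.9%) for no mark. The tested ones are the long and the densely covered, with a median length of 1738 bp for H3K9me2 against 667.5 bp for the 6838, so sets are compared by their summed reads over every interval, tested or not. An interval is said to have risen or fallen where its change is at least 2-fold and its interval excludes 0.

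Summed over the 6838 intervals and taken over H3, the culture had less H3K9me2 relative to the chromosome arms, more H3K27me3 and a little more H3K4me3. The H3K9me2 level was 0.60 in the culture and 0.93 in leaf, a change of -0.33 (-0.35 to -0.32). The H3K27me3 level was 0.44 in the culture and -0.29 in leaf, a change of 0.73 (0.71 to 0.74). H3K4me3 was depleted in both, at -0.57 in the culture and -0.76 in leaf, a change of 0.19 (0.17 to 0.21). H3 itself took 6.31% of nuclear reads in the culture and 5.38% in leaf, a log2 difference of 0.23 (0.22 to 0.24).

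The summed H3K9me2 change depended on what the libraries were scaled to. All H3-dense lines of the tables together, pericentromeric or not, held 44.7% of culture H3K9me2 reads, against 32.1% in leaf. With library totals taken without those lines the change was 0.00 in place of -0.33, and every other H3K9me2 change below stands higher by the same amount. Differences between sets of intervals do not move with such a scaling, and these were clear of counting error. They do depend on the division by H3. The H3 share itself changed by 0.23 in the pericentromeric intervals and by -0.53 in arm intervals (difference 0.76). It changed by 0.56 in pericentromeric elements and by 0.28 in pericentromeric genes. Set differences without division by H3 are not given here. In H3K9me2 over H3, the pericentromeric intervals changed by 0.86 less on the log2 scale than arm intervals, which changed by 0.53 (difference -0.86, -0.89 to -0.84). They lay above pericentromeric elements, which changed by -1.05 (difference 0.72), and stood below pericentromeric genes, which changed by 0.35 (difference -0.68).

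For H3K27me3 the intervals went with the elements and not with the genes. Their change of 0.73 lay beside 0.84 for pericentromeric elements, 0.00 for pericentromeric genes and 0.38 for arm intervals. The differences were -0.11 from elements, 0.73 from genes and 0.35 (0.33 to 0.37) from arm intervals. In share of reads, the intervals held 8.53% of nuclear H3K27me3 reads in the culture and 4.39% in leaf. For H3K9me2 the shares were 9.53% in the culture and 10.2% in leaf, and for H3K4me3 4.25% and 3.17%.

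**Figure D1:**
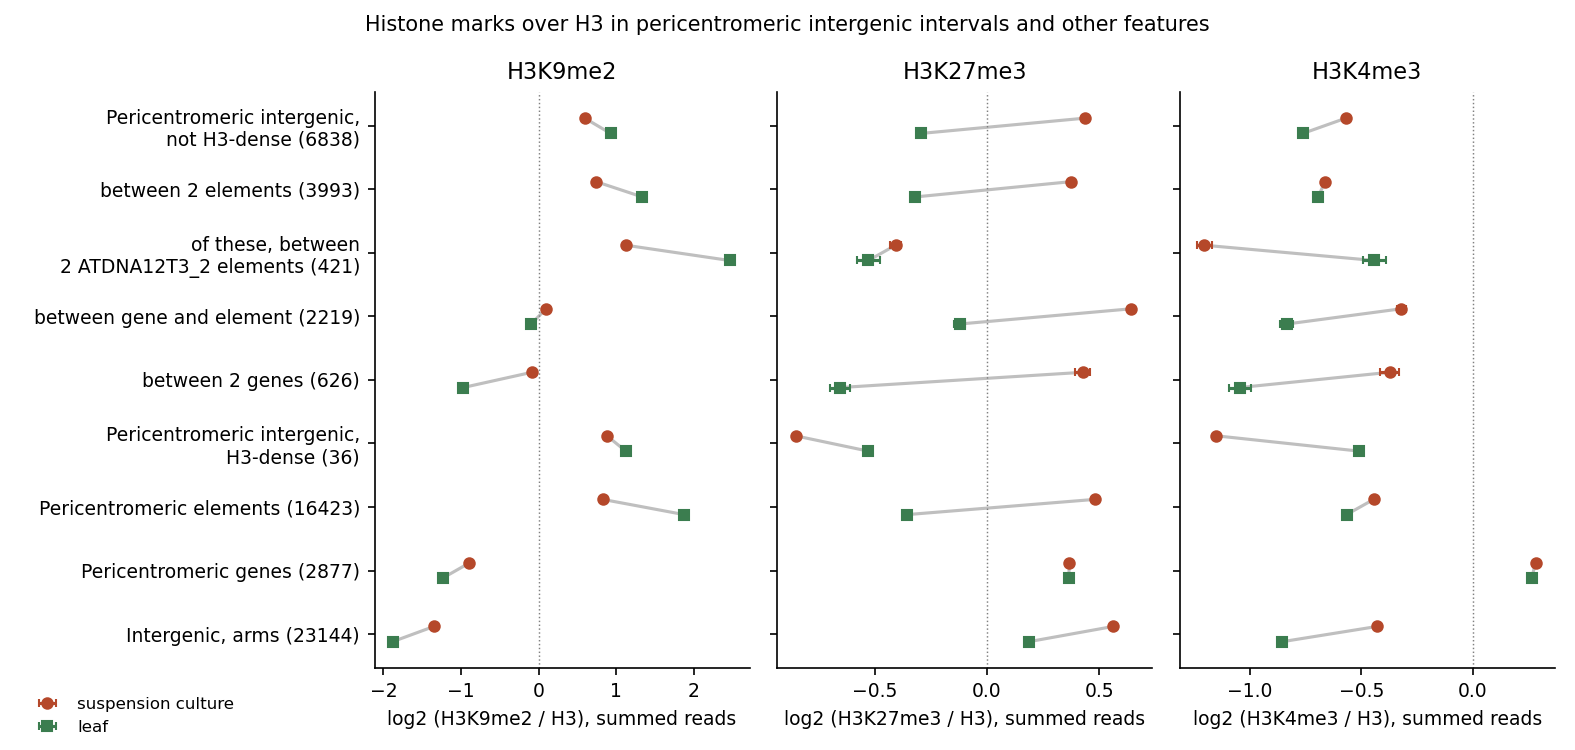
Level of each mark over H3 (x axis, log2 of summed reads per 1000000 nuclear reads) in the culture (circles) and in leaf (squares) for sets of intervals (rows, with the number of intervals), with 95% counting intervals mostly smaller than the points. H3K9me2 stands lower in the culture in intervals between elements and higher in intervals between genes, and H3K27me3 stands higher in the culture in every intergenic set that is not H3-dense.

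Interval by interval, H3K9me2 moved both ways. Of the 1288 tested intervals, 286 rose (22.2%, against 18.3% of all lines tested) and 441 fell (34.2%, against 26.5%). The median change was -0.55, against -0.09 over all lines tested. With totals that leave out H3-dense lines, 359 rose and 334 fell. A level of at least 1 was reached by 431 intervals in the culture and by 575 in leaf, 239 of them in both.

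H3K27me3 rose far more often than elsewhere in the genome and fell less often. Of the 1593 tested intervals, 406 rose (25.5%, against 8.19% of all lines tested) and 162 fell (10.2%, against 22.9%). The median change was 0.28, against -0.44 over all lines tested. Centred on that genome-wide median, 580 rose and 70 fell. A level of at least 1 was reached by 293 intervals in the culture and by 150 in leaf, 106 of them in both.

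H3K4me3 calls were near the background. Of 1376 tested intervals, 230 rose (16.7%, against 13.5% of all lines tested) and 138 fell (10.0%, against 8.55%). The median change was -0.05, against 0.10 over all lines. A level of at least 1 was reached by 120 intervals in the culture and by 15 in leaf, 8 of them in both. The matching shares of all lines tested are not given here, for this mark or for H3K9me2 and H3K27me3. Whether these counts are particular to the pericentromeric intervals was therefore not tested. For H3 alone, 408 of 2913 tested intervals rose (14.0%, against 7.39%) and 228 fell (7.83%, against 12.4%).

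Tandem repeats held many of the H3K9me2 falls. The deposited annotation places 660 copies of ATDNA12T3_2, a family it assigns to the DNA transposons, and in tandem runs its copies are fragments with a median of 63 bp. Of the 6874 intervals, 435 lie between such fragments on both sides, and no arm interval does. They are 10.8% of the intervals with elements on both sides, 411 of them are under 500 bp, and 432 stand in 8 runs of at least 4. In the largest run, Chr3:13682476-13870639 with 278 intervals, 237 of 277 steps from one interval's start to the next were between 450 and 550 bp. That run therefore has a regular unit, made of the fragment and the interval beside it. Chr3:14172305-14224749 was similar, with 56 of 67 steps in that range. Chr5:12807868-12869688 was less regular, with 10 of 54 and a median step of 747 bp. The smaller runs have few steps. Reads that match several copies cannot be placed on one of them. The sources used here do not say how such reads were handled.

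Of the sets of intervals described here, these had the highest H3K9me2 level in leaf, and it was lower in the culture. Summed over the 421 that are not H3-dense, the H3K9me2 level was 1.13 in the culture and 2.46 in leaf, a change of -1.34 (-1.38 to -1.29). Of 250 tested, 155 fell and none rose. All 250 were at a level of at least 1 in leaf, and 151 were in the culture. Tested levels had a median of 1.10 (0.06 to 2.38) in the culture and 2.29 (1.05 to 3.18) in leaf. The change was below 0 in 247 of 250 and ran from -2.61 to 0.23. Without division by H3, which was itself higher in the culture here (0.68), the summed change was -0.65 and 67 fell. With totals that leave out H3-dense lines it was -1.00 and 100 fell.

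The loss was larger than in the other intervals between elements. Those changed by -0.41, so the difference was -0.93 (-0.98 to -0.88). H3K27me3 changed by 0.12 in the runs, against 0.76 in the other intervals between elements, and H3K4me3 by -0.76 against 0.14. The 421 intervals are 6.16% of the 6838, 19.4% of those tested for H3K9me2 and 35.1% of those that fell. Without them 286 of 1038 tested rose and 286 fell, 27.6% each, so that the falls came close to the 26.5% of all lines tested, and the summed change was -0.16, or 0.17 on totals without H3-dense lines. The difference from the arms, on either scale, was then -0.69.

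The direction was common to all 8 runs. Chr3:13682476-13870639 had an H3K9me2 level of 1.11 in the culture and 2.48 in leaf, and 79 of 133 tested intervals fell. Chr3:14172305-14224749 (68 intervals) changed by -1.09, with 32 of 66 tested fallen, and Chr3:13592662-13600194 (11) by -1.26, with 3 of 6. Chr5:12807868-12869688 (55, of which 6 are H3-dense) lost more, with a level of 0.71 in the culture and 2.37 in leaf and 46 of 50 fallen. The 4 intervals of Chr4:3055303-3061185 and the 4 of Chr5:11185400-11188352 are all H3-dense, and all fell, with summed changes of -2.19 and -1.76. Chr1:16431612-16433955 (4) changed by -1.39 and Chr5:11309796-11315784 (8) by -1.79, on few reads: 181 and 162 H3K9me2 reads in the culture, and 201 and 149 in leaf.

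H3K27me3 was not uniform along the largest run. In its first 50 kb, 21 of 48 tested intervals rose and the summed change was 0.85 (0.72 to 0.98). In the following 50 kb steps the change was 0.43, 0.26 and -0.34, with 5 of 35, 0 of 20 and 0 of 30 risen. H3K9me2 was lower in the culture by nearly the same amount in each step, with changes of -1.45, -1.44, -1.26 and -1.24.

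**Figure D2:**
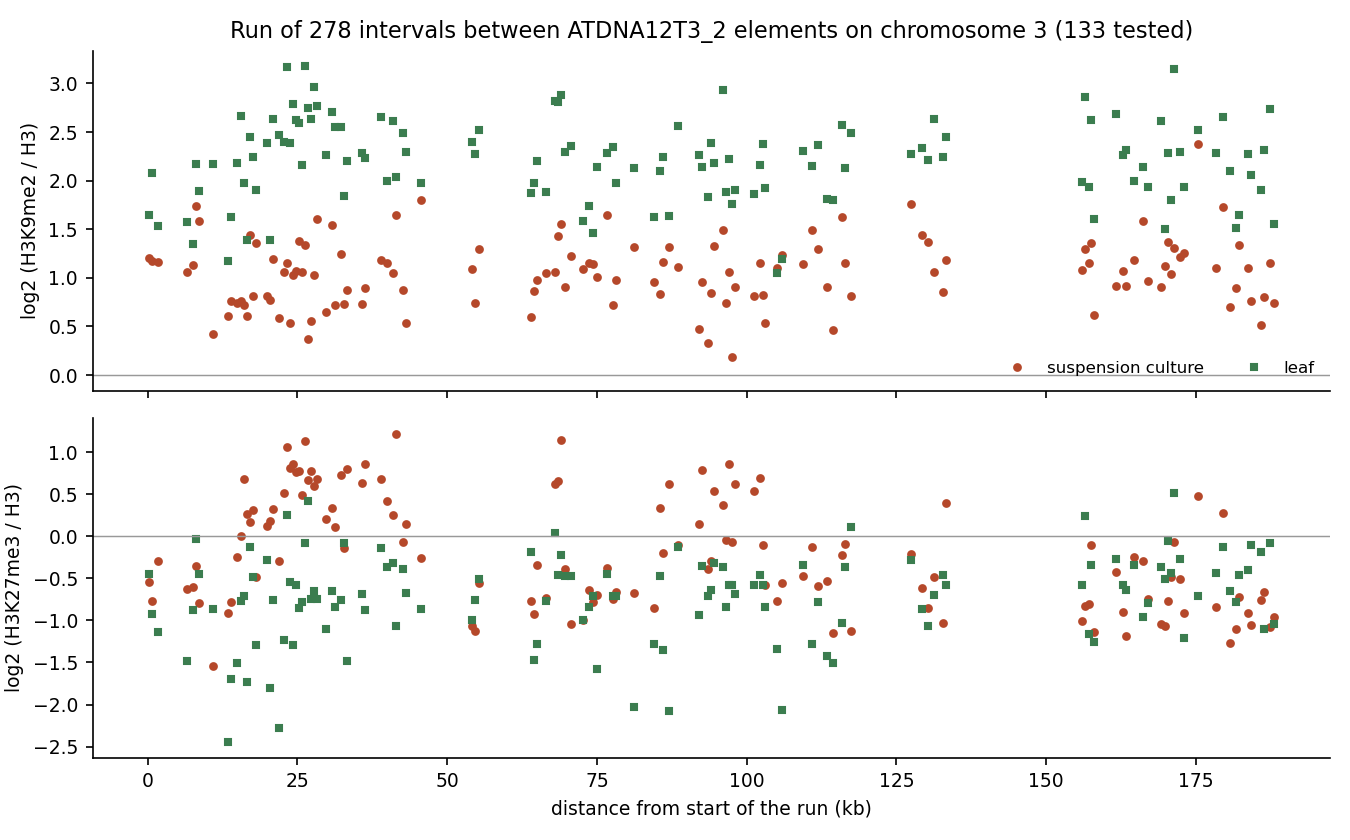
H3K9me2 (above) and H3K27me3 (below) levels over H3 (y axis, log2) of the 133 tested intervals of the chromosome 3 run, by distance from its start (x axis, kb), in the culture (circles) and leaf (squares). Nearly all of the culture's H3K9me2 points lie below leaf's along the run, and its H3K27me3 points lie above leaf's in 43 of the 48 tested intervals of the first 50 kb and in 11 of 30 in the last 50 kb.

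The direction of H3K9me2 over H3 differed with the neighbours, also outside the runs. Intervals between elements changed by -0.59 (level 0.74 in the culture, 1.34 in leaf), or -0.41 without the runs. On totals without H3-dense lines these values are -0.26 and -0.08. Intervals between a gene and an element changed by 0.19, and those between genes by 0.89 (-0.09 in the culture, -0.97 in leaf). The H3 share by which these values are divided moved the other way, by 0.46 between elements and by -0.71 between genes. Changes of these sets without division by H3 are not given here. Of the tested intervals, 171 of 965 between elements rose, a share close to the 18.3% of all lines tested. Of the same 965, 376 fell, against 26.5% of all lines tested. With a gene on one side, 83 of 260 rose and 58 fell, and between genes 32 of 63 rose and 7 fell.

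Intervals with the same neighbours were also set beside each other by position, with the mitochondrial insertion described below left in. Arm intervals between elements changed by 0.00, so pericentromeric ones differed by -0.60, or -0.41 without the runs. Arm intervals between genes changed by 0.75, and pericentromeric ones differed from them by only 0.14. For H3K27me3 the order was the other way: the difference was 0.44 between elements and 0.72 between genes, where pericentromeric intervals changed by 1.08 and arm intervals by 0.36. The change in H3 share differed between pericentromeric and arm intervals by 0.67 between elements (0.63 without the runs) and by -0.05 between genes. Between elements this H3 difference is larger than the H3K9me2 difference over H3 and opposite in sign. The share of H3K9me2 reads therefore fell no more in pericentromeric intervals between elements than in arm ones.

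The change also differed with the kind of flanking element. Beside Gypsy elements, the long terminal repeat retrotransposons that crowd Arabidopsis pericentromeres, H3K9me2 changed by -0.75 over 1300 intervals, with 61 of 376 tested risen and 145 fallen. Over all lines tested, 18.3% rose and 26.5% fell. Beside LINE elements the change was -0.31, beside En-Spm DNA transposons -0.32 and beside MuDR DNA transposons -0.08, which are 0.02, 0.01 and 0.25 on totals without H3-dense lines, where Gypsy stays at -0.42. Beside Copia retrotransposons it was 0.06, and beside Helitrons, the rolling-circle transposons, 0.30, with 90 of 298 risen and 65 fallen. H3K27me3 was higher in the culture beside all 6 superfamilies, with changes between 0.48 beside En-Spm and 0.84 beside Copia. H3K4me3 changed most beside LINE elements (0.84) and Copia (0.67) and by -0.02 beside Gypsy.

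The calls of flanking lines were set beside those of the intervals. Of the fallen H3K9me2 intervals with a tested neighbour, 174 of 221 (78.7%) had one that fell too, against 20 of 122 risen intervals (16.4%) and 82 of 231 that did neither (35.5%). A risen neighbour stood beside 61 of those 122 risen intervals and 35 of the 231 (15.2%). For H3K27me3, 81 of 185 risen intervals (43.8%) had a risen neighbour, against 41 of 501 that did neither (8.18%). Reads at a boundary can count for one line or the other, and the sources used here do not give the rule.

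**Figure D3:**
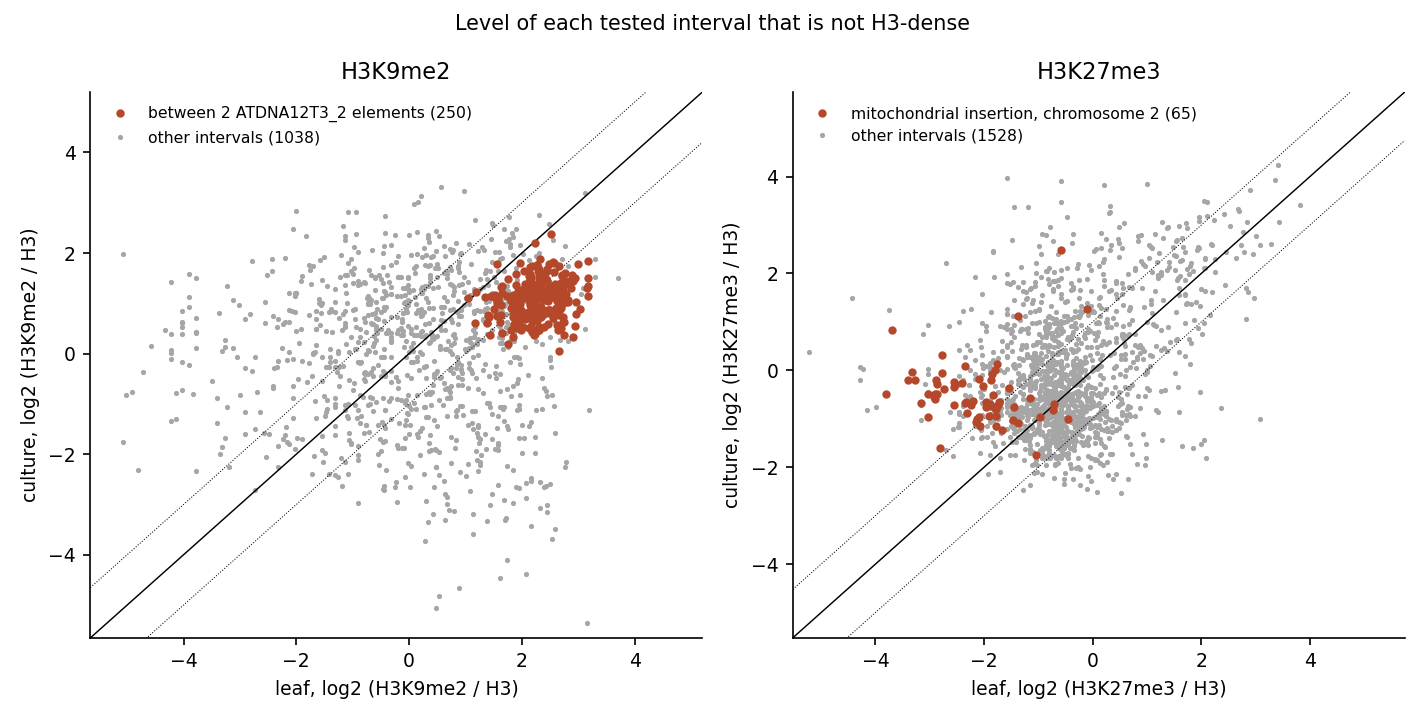
Level of each tested interval that is not H3-dense in the culture (y axis) against leaf (x axis), log2 of mark over H3, for H3K9me2 (left) and H3K27me3 (right). The solid line marks equal levels and the dotted lines a 2-fold difference. The 250 run intervals (coloured, left) lie below equality save 3, and most intervals of the mitochondrial insertion (coloured, right) lie above it.

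Over H3, the intervals of one chromosome 2 region moved the other way. Between 3.2 and 3.7 Mb lies the insertion of mitochondrial DNA known for the Columbia genome, and 111 intervals fall in it. Their H3K9me2 level was 0.90 in the culture and -0.56 in leaf, a change of 1.46, and 48 of 67 tested rose and 1 fell. H3K27me3 changed by 1.68, with 48 of 65 risen, and H3K4me3 by 1.12, with 38 of 66 risen. None fell for those marks. These intervals had 7838 H3 reads in the culture and 10724 in the shallower leaf library, a log2 difference in share of -1.56. This H3 difference is larger than the changes of H3K9me2 and H3K4me3 over H3. The shares of reads of both marks were therefore lower in the culture, not higher, and that of H3K27me3 was only slightly higher.

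The mitochondrial line of the tables had changes of the same signs. They were 2.34 for H3K9me2, 2.09 for H3K27me3 and 1.67 for H3K4me3, with H3 at -2.36. Whether reads of the organelle's own DNA were placed in the insertion was not tested. The insertion held 48 of the 286 H3K9me2 rises. Without it, chromosome 2 changed by -0.13 in H3K9me2 (0.20 on totals without H3-dense lines), against 0.46 with it, and the 6838 intervals by -0.49 in place of -0.33.

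In all, 501 intervals had an H3 share at least 4-fold higher in leaf. They were picked by the H3 reads that every change is divided by, so their values are a description. In them H3K9me2 changed by 2.52, H3K27me3 by 2.89 and H3K4me3 by 2.31. They hold 28 of the 286 H3K9me2 rises, 30 of the 406 H3K27me3 rises and 28 of the 230 H3K4me3 rises. All 3 marks are divided by the same H3 libraries, so these values share that denominator. Without every interval that differed 4-fold in H3 in either direction, the summed changes were -0.48 for H3K9me2, 0.54 for H3K27me3 and 0.14 for H3K4me3.

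Along the chromosomes, H3K27me3 was higher in the culture nearly throughout, whereas H3K9me2 was lower in some windows and higher in others. Over 58 windows of 500 kb, the H3K27me3 change was above 0 by its counting interval in 52 and below 0 in none. The H3K9me2 change was below 0 in 32 windows and above 0 in 13, or in 13 and 26 on totals without H3-dense lines. By chromosome, H3K9me2 changed by -0.01, 0.46, -0.75, -0.25 and -0.69 on chromosomes 1 to 5, and H3K27me3 by 0.91, 1.31, 0.42, 0.85 and 0.28. Without the runs chromosome 3 changed by -0.27 and chromosome 5 by -0.60 in H3K9me2. On totals without H3-dense lines the values for chromosomes 1 to 5 are 0.32, 0.79, -0.42, 0.09 and -0.36, so only chromosomes 3 and 5 keep their sign below 0, and chromosome 3 without the runs is at 0.07. The largest fall of H3K9me2 over H3 was on chromosome 1 at 14.5 to 15 Mb (-1.25), where 26 intervals had a level of 0.41 in the culture and 1.66 in leaf. The H3 share there was higher in the culture by 0.96, which makes up most of that fall.

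The highest window for H3K27me3 was chromosome 1 from 15 to 15.5 Mb, with a change of 2.92 (2.76 to 3.09) and levels of 2.68 in the culture and -0.24 in leaf. There, 59 of 80 intervals lie within 300 bp of ATREP18, another family that the tables assign to the DNA transposons. Without those intervals the window changed by 1.23. In all, 112 intervals lie so near to an ATREP18 element, 67 on chromosome 1 and 29 on chromosome 4. They held 45520 H3K27me3 and 2473 H3 reads in the culture, against 672 and 536 in leaf. Their summed H3K27me3 level was 3.34 in the culture and -0.25 in leaf, a change of 3.59 (3.42 to 3.77), and 111 of 112 had a higher share of H3K27me3 reads in the culture. H3K9me2 levels there were high in both, at 2.44 in the culture and 2.07 in leaf, and H3K4me3 changed by -0.21. The other intervals changed by 0.60 in H3K27me3. Only 4 of the 112 passed the limits on reads, and all 4 rose.

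**Figure D4:**
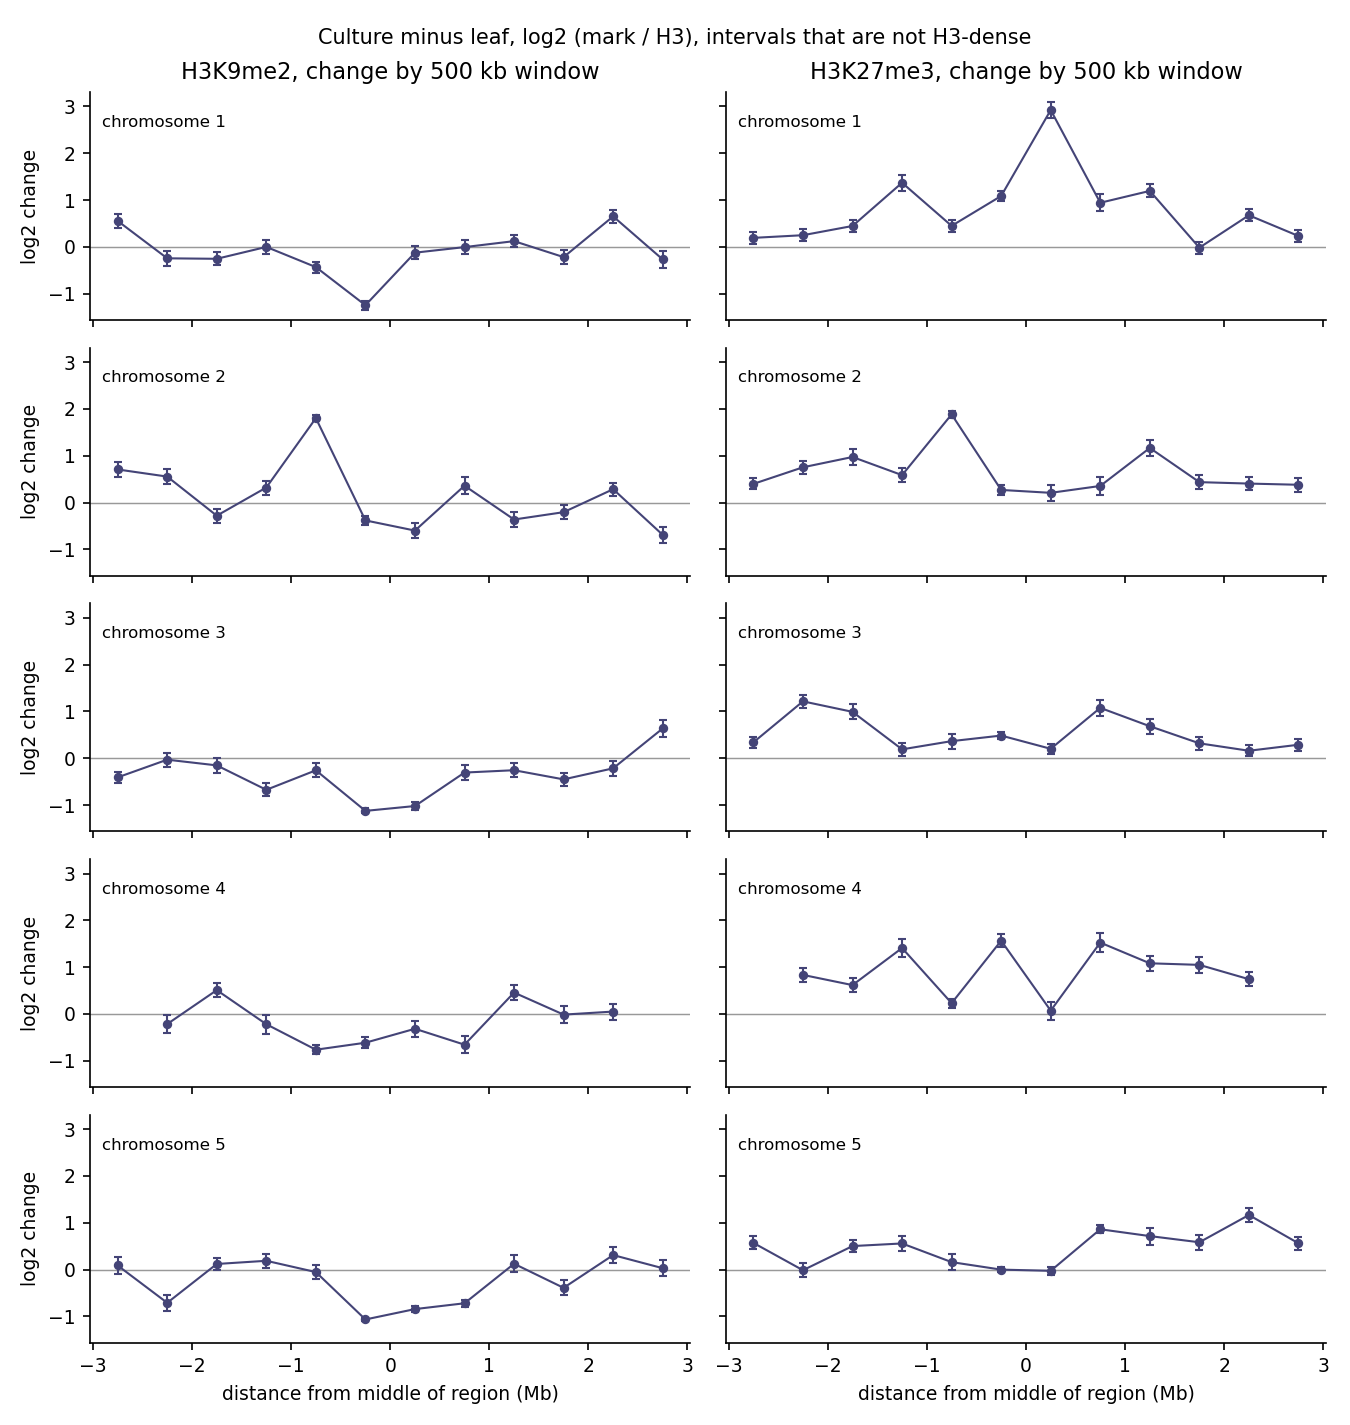
Change of H3K9me2 (left) and H3K27me3 (right) over H3, culture minus leaf (y axis, log2), of the summed intervals in each 500 kb window, by distance from the middle of the region (x axis, Mb), with 95% counting intervals, for chromosomes 1 to 5. H3K9me2 is lowest at -1.25 on chromosome 1 and highest at the mitochondrial insertion of chromosome 2 (1.80), and H3K27me3 peaks at 2.92 on chromosome 1.

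The single intervals with the largest H3K9me2 falls had more H3K4me3 reads in the culture. Chr4:1855489-1857647, between an ATREP10C Helitron and an ATLINEIII element, had 0 H3K9me2 reads beside 38 H3 reads in the culture, against 154 and 13 in leaf. Set from a floor of 3 reads in that library, H3K9me2 over H3 was about 126-fold lower in the culture. Without that floor the change was -8.50 (-11.5 to -5.53). The same interval had 222 H3K4me3 reads in the culture and 27 in leaf. The mark that covered this stretch in leaf was not detectable at the culture library's depth.

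Chr3:12578028-12581068, beside ATCOPIA42 and ATHILA2, had 10 H3K9me2 and 92 H3 reads in the culture and 177 and 25 in leaf, a change of -5.60 (-6.68 to -4.52). H3K4me3 reads there numbered 151 in the culture and 30 in leaf. Chr3:13963164-13964139, between ATENSPM10 and ATENSPM11, had 2 H3K9me2 reads in the culture and 79 in leaf, a change of -6.23, with 111 H3K4me3 reads in the culture and 4 in leaf. The remaining pair, Chr2:5629099-5630001 between the genes AT2G13500 and AT2G13510 and Chr3:11580600-11582344 beside AT3G29750, changed by -6.09 and -5.85. Their H3K4me3 reads numbered 28 and 40 in the culture, and 11 and 10 in leaf. H3 shares were also higher in the culture in all 5, by 0.37 to 0.86 on the log2 scale. Over H3, H3K4me3 rose in Chr4:1855489-1857647 (1.88) and Chr3:13963164-13964139 (3.10). The other changes, 0.82, -0.33 and 0.30 in the order given, had counting intervals that include 0.

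The largest H3K4me3 rises had fewer H3K9me2 reads in the culture than in leaf. Chr1:13680779-13682262, between ATGP3 and ATLANTYS1, had 538 H3K4me3 and 66 H3 reads in the culture, against 6 and 20 in leaf, a change of 4.95 (3.67 to 6.24). Its H3K9me2 reads numbered 14 in the culture and 87 in leaf. Chr4:4794962-4798044, beside the gene AT4G07950, had 143 H3K4me3 reads in the culture and 4 in leaf (change 5.05), with 2 and 44 H3K9me2 reads. Chr3:11065193-11066623, between BRODYAGA1A and ATLINE2, had 454 H3K4me3 reads in the culture and 19 in leaf (3.97), with 6 and 81 H3K9me2 reads. Chr3:13209287-13209957 and Chr3:14359969-14361403 changed by 4.67 and 4.19, with 288 and 240 H3K4me3 reads in the culture and 7 and 11 in leaf. There, H3K9me2 reads numbered 3 and 6 in the culture and 10 and 18 in leaf. Reads of the 2 marks come from separate libraries, and the culture's H3K9me2 library was the deeper one.

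In 3 of the 5 largest H3K9me2 rises, leaf H3 was high and leaf H3K9me2 low. Chr2:3187850-3189786 had 77 H3K9me2 and 18 H3 reads in the culture, against 6 and 188 in leaf, a change of 7.05 (5.74 to 8.36). Chr3:13534552-13541508 had 281 and 152 in the culture against 55 and 460 in leaf (4.18), and Chr2:3468774-3472305, between AT2G07732 and AT2G07734 in the mitochondrial insertion, 150 and 48 against 41 and 192 (4.08). The H3 share was lower in the culture by 4.42, 2.70 and 3.08 on the log2 scale. The part of this H3 difference in the rises was not tested.

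In the other two, leaf H3K9me2 reads numbered 4 and 5. Chr2:2690751-2691428, beside HELITRON1, had 126 H3K9me2 reads in the culture and 4 in leaf, with 16 and 15 H3 reads (4.84, H3 difference -1.02). Chr2:3936567-3938408, beside ATHAT10 and VANDAL3, had 243 and 5, with 41 and 19 H3 reads (4.53, H3 difference -0.03).

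In 3 of the 5 largest H3K27me3 rises, leaf H3K27me3 reads numbered 5 to 12. Chr4:3262152-3263181, beside ATGP2 and ATHILA2, had 425 H3K27me3 and 14 H3 reads in the culture, against 5 and 11 in leaf, a change of 5.55 (3.95 to 7.14) with an H3 difference of -0.78. Chr4:1820340-1821958, beside ATHILA4C and VANDAL7, had 393 H3K27me3 reads in the culture and 12 in leaf, with 20 and 19 H3 reads (4.57, H3 difference -1.03). Chr1:15351395-15352035, beside an ATREP18 element, had 728 and 5, with 38 and 10 H3 reads (4.82, H3 difference 0.72). The other two, Chr2:2938180-2940091 (5.91) and Chr3:13534552-13541508 (3.87), again had high leaf H3, with 10 and 152 H3 reads in the culture and 287 and 460 in leaf.

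The 5 largest H3K27me3 falls lay nearer an end of their region than its middle, with 4 to 44 H3K9me2 reads in the culture and 2 to 24 in leaf. Chr5:9517394-9520276, between a BRODYAGA2 element and AGL101, a gene of the MADS-box family of transcription factors, had 38 H3K27me3 and 42 H3 reads in the culture, against 275 and 21 in leaf, a change of -4.07 (-4.96 to -3.19). H3K4me3 reads there numbered 154 in the culture and 37 in leaf. Chr3:11107562-11109607 and Chr3:16308043-16315978 also lie beside BRODYAGA2 elements and changed by -3.89 and -3.51. Chr1:16641748-16646732, beside RAB18, which encodes a small GTPase of the Rab family, had 61 H3K27me3 reads in the culture and 194 in leaf (-2.80), with 440 and 78 H3K4me3 reads. Chr3:16050536-16051819 had 14 and 63 (-3.43).

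The 5 largest H3K4me3 falls lay between -3.03 and -2.20. The largest, Chr2:3896689-3898009 beside ATGP10 and ATHILA6A, had 19 H3K4me3 and 48 H3 reads in the culture, against 59 and 13 in leaf, a change of -3.03 (-4.16 to -1.91). Chr2:5444604-5446903 changed by -2.40 with an H3 share higher by 2.80 in the culture, where it had 87 H3K4me3 reads against 39 in leaf. It also had 472 H3K27me3 reads in the culture and 29 in leaf, an H3K27me3 change over H3 of -0.20 (-1.15 to 0.74). Chr1:17620653-17621654, Chr2:2188592-2191057 and Chr5:10511057-10512808 changed by -2.65, -2.20 and -2.51.

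The 36 H3-dense intervals are the repeat-like stretches. They took 13.8% of nuclear H3 reads in the culture (exact binomial interval 13.8% to 13.9%) and 9.49% in leaf, where the value is set by how they were chosen. They took 25.5% of H3K9me2 reads in the culture and 20.7% in leaf. Summed H3K9me2 changed by -0.24 (0.09 on totals without H3-dense lines), H3K27me3 by -0.32 and H3K4me3 by -0.64. Of the 36, 4 rose and 18 fell in H3K9me2, and they divided by their surroundings. Just inside the limit of density stood Chr1:15085893-15087257 with 199 leaf H3 reads per kb, and just outside it Chr5:12857306-12857743 with 153.

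Summed over the 4 intervals beside the ribosomal RNA genes of chromosome 3, H3K9me2 was higher in the culture. These genes encode the structural RNAs of the ribosome, and 2 of the 4 lines annotated as ribosomal RNA in the nuclear genome lie here. Summed H3K9me2 changed by 0.73 and the share of H3K9me2 reads was 11.3% in the culture and 4.43% in leaf. Most of it lay on one side: Chr3:14191250-14195741 had 151336 H3K9me2 reads in the culture and 17535 in leaf, a ratio to H3 of 3.19 in the culture and 1.05 in leaf and a change of 1.61 (1.57 to 1.64). Chr3:14199916-14205307, on the other side of the genes, had ratios of 2.26 and 1.77, and Chr3:14196603-14197677 of 0.839 and 0.751. Chr3:14199484-14199753, between the 2 genes and the densest of all with 7770 leaf H3 reads per kb, had 1.38 and 1.44. H3K27me3 and H3K4me3 were lower in the culture in all 4, with summed changes of -0.92 and -1.08.

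The 14 H3-dense intervals of the ATDNA12T3_2 runs all fell. Their H3K9me2 over H3 was 0.773 to 2.17 in the culture and 3.40 to 7.63 in leaf, and their changes ran from -2.24 to -1.46. The highest leaf ratio, at an interval chosen after its values were seen, was at Chr5:11186404-11186844, with 3643 H3K9me2 and 1714 H3 reads in the culture and 4407 and 462 in leaf. The ranges of culture and leaf ratios did not overlap, but the 14 intervals are not replicates, since each sample type has 1 library per antibody.

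Among the 15 others, 8 are at least 5 kb long and shared one profile. They lie on chromosomes 2 to 5 and together took 13.1% of H3K9me2 reads in the culture and 14.0% in leaf. H3K9me2 over H3 was 1.17 to 1.72 in the culture and 2.37 to 3.15 in leaf. H3K27me3 over H3 was 0.609 to 0.722 in the culture and 0.665 to 0.711 in leaf, and H3K4me3 over H3 0.457 to 0.478 and 0.570 to 0.619. Their H3 share in the culture was 1.36 to 1.65 times that in leaf. The largest of chromosome 4, Chr4:3965575-3987766 between ATHILA2 and ATHILA, stood apart with the lowest culture ratio (1.17) and the highest leaf ratio (3.15). The largest of chromosome 5, Chr5:11723225-11740194, had 1.56 and 2.59, the largest of chromosome 2, Chr2:3626460-3636370, 1.72 and 2.46, and the densest, Chr3:13586905-13592615, 1.60 and 2.37. Of the 7 shorter ones, 3 border an ATDNA12T3_2 element, and all 3 fell. Not every bordering interval did. Chr3:13586905-13592615 changed by -0.57, short of 2-fold. Chr3:14191250-14195741 and Chr3:14199916-14205307, beside the ribosomal RNA genes, changed by 1.61 and 0.36. Intervals with 1 such flank that are not H3-dense changed by 0.22 in summed H3K9me2.

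The last 3 H3-dense intervals were picked because their share of leaf H3 reads was over 10 times their share of leaf H3K9me2 reads. Their low leaf H3K9me2 level follows from that choice, so it and the H3K9me2 change are a description. Chr3:12685581-12686582 had 1757 H3K9me2 and 661 H3 reads in the culture and 117 and 2332 in leaf, and Chr1:16174793-16176732 had 3409 and 1430 in the culture and 220 and 4597 in leaf. Chr3:16576872-16577133 had 495 and 257 in the culture and 40 and 747 in leaf. Their H3K9me2 changes were 5.39 to 5.97, and their H3 share in the culture was 0.132 to 0.160 of that in leaf. Summed leaf levels were -4.67 for H3K9me2, -2.60 for H3K27me3 and -0.84 for H3K4me3. On the plastid line the leaf levels stood in the same order, at -7.67, -4.20 and -2.46. Whether plastid reads were placed in these intervals was not tested.

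**Figure D5:**
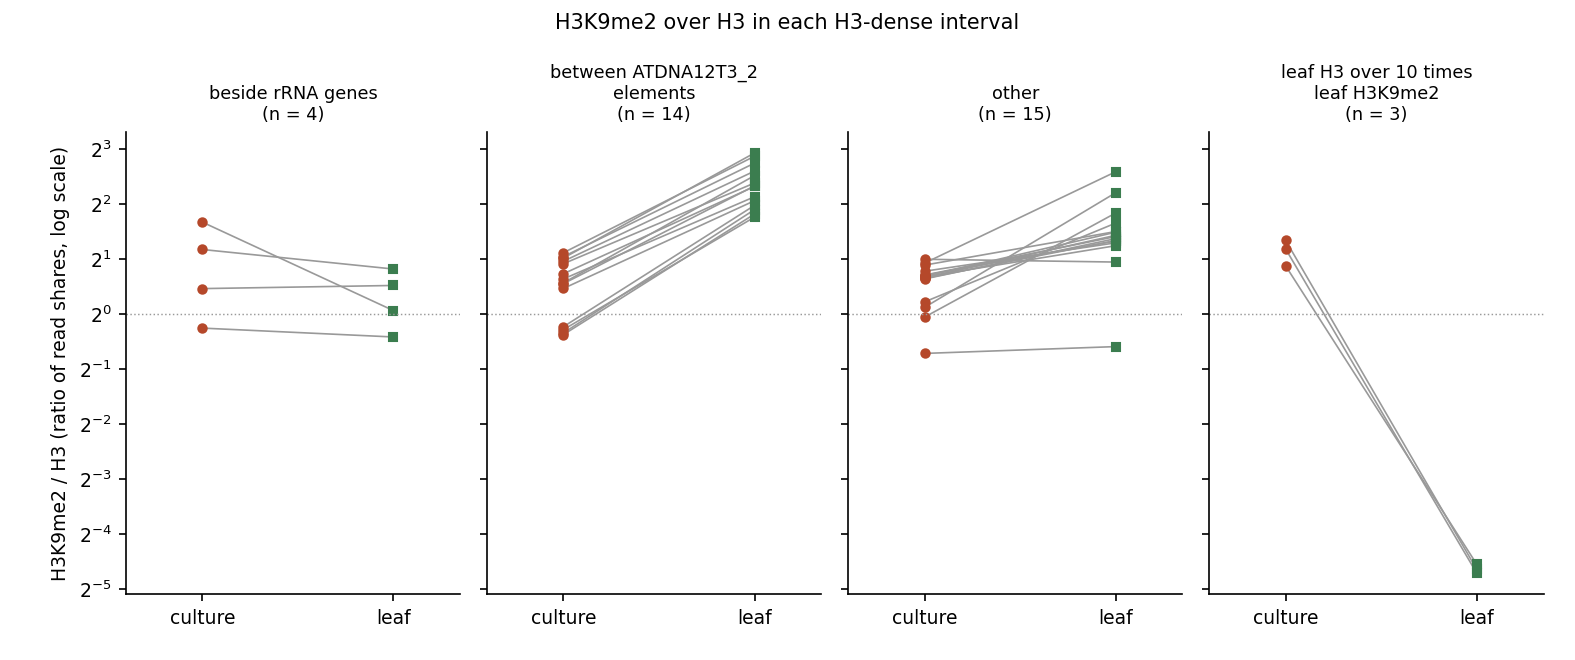
H3K9me2 over H3 (y axis, ratio of read shares, log scale) in the culture (circles) and leaf (squares) for each of the 36 H3-dense intervals, joined by a line. They are grouped by surroundings, save 3 picked by their leaf reads. The 4 beside ribosomal RNA genes are at similar or higher ratios in the culture, and the 14 in ATDNA12T3_2 runs all fall. The 3 picked for far more leaf H3 than leaf H3K9me2 are near 0.04 in leaf.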

How the data were processed

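Per the labels, ChIP-seq libraries of a Col-0 suspension culture and of Col-0 leaves were made with antibodies against H3, H3K9me2, H3K27me3 and H3K4me3, 1 for each sample type. The submitters' processing notes name Bowtie2, bedtools and TAIR10. Versions, settings, read length and the treatment of duplicates and of multi-mapping reads are, beyond these names, not given in the sources used here. Each deposited file holds the raw read counts per annotated line as the authors made them, unnormalized, over the same lines in all 8 files. Coordinates are as deposited (TAIR10), where adjoining lines share a boundary coordinate.

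The intervals, lists and limits were chosen with earlier results of these data known. Counts were scaled to 1000000 nuclear reads with a pseudocount of 1 per line (none for sums). Counting intervals are Poisson intervals at the 95% level. PCR copies are not independent molecules, so they understate even the counting error. No test was run, with 1 library per group. For each mark the intervals named are the 5 largest rises and the 5 largest falls by the interval end nearer 0. Among H3-dense intervals they are the 8 densest and the largest of each chromosome. Gene symbols are from RefSeq (TAIR10.1). Base composition and interval sequences, both planned, were not analysed here. Alternatives were other scalings, limits, lengths and subsets, of which those on the ATDNA12T3_2 runs and on 4-fold H3 differences were chosen after seeing the data. The code (Python 3.11.15, pandas 2.3.3, scipy 1.17.1, matplotlib 3.10.9) was tested on simulated data.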

Additional observations from a re-analysis of the deposited data

Results flagged for a closer look

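The comparisons use nuclear lines alone, and 2 lines outside them carried a signal in leaf H3 above that in culture H3. The plastid line held 12.2% of all leaf H3 reads, against 0.0331% of culture H3 reads, and 0.0686% of leaf H3K9me2 reads. The mitochondrial line held 1.54% of all leaf H3 reads, against 0.348% of culture H3 reads, and 0.720% of leaf H3K9me2 reads. These lines drew attention because they lie outside the nuclear intervals that are compared.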

How the results depend on the processing

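No paired analysis was possible because each group has 1 library and the labels give no replicate numbers. For the same reason no library could be left out. Over 178 comparisons of a result with an alternative, 106 stayed within the limits set for them (counting error, or 1.5 times a count), 71 moved and 1 went to about 0. The pseudocount of 5 and the removal of overlapped intervals moved no result. Values below are summed changes in the order H3K9me2, H3K27me3, H3K4me3, H3, against -0.33, 0.73, 0.19 and 0.23, and the causes of the moves were not tested.

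Without division by H3 the marks changed by -0.10, 0.96 and 0.42. Centred on the median of all tested lines the changes were -0.25, 1.16, 0.095 and 0.42, with 70 H3K27me3 falls. Library totals without H3-dense lines gave 0.000734 for H3K9me2 (its interval, -0.01 to 0.02, spans 0) and then 0.77, 0.13 and 0.19. With H3-dense set at 10 times the gene median they were -0.29, 0.77, 0.23 and 0.21, and at 40 times -0.50, 0.59, 0.070 and 0.30. Set on culture H3, H3K9me2 gave -0.31 and H3 0.22. The culture H3 share of H3-dense intervals, 13.8%, was then 14.3%, 11.8% and 14.0%, and 13.2% at 1000 bp or longer. Intervals of 1000 bp or longer gave -0.24, 0.64, 0.24 and 0.19, and regions narrowed by 1 Mb at both ends -0.41, 0.85, 0.16 and 0.25. Without intervals near ATREP18, H3K9me2 gave -0.37 and H3K27me3 0.60. Without the mitochondrial insertion the changes were -0.49, 0.60, 0.10 and 0.39. The last 2 alternatives were chosen after seeing the data: without the ATDNA12T3_2 runs -0.16, 0.78, 0.28 and 0.19, and without intervals 4-fold different in H3 -0.48, 0.54, 0.14 and 0.25.

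With no filter on low reads there were 644 rises and 1027 falls for H3K9me2, 956 and 368 for H3K27me3, and 573 and 402 for H3K4me3. A 3-fold rule left 258, 70 and 54 falls in the same order. At 1000 bp or longer 262 intervals fell in H3K9me2 and 83 in H3K4me3. Narrowed regions left 269 rises and 94 falls of H3K27me3. Without the runs 286 fell in H3K9me2 and 84 in H3K4me3.

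The H3K9me2 change of the runs, -1.34, was -0.65 without H3, -1.25 centred, -1.00 with totals without H3-dense lines and -1.23 at 1000 bp or longer. Their 155 falls were 67 without H3, 100 with those totals, 247 with no filter, 3 at 1000 bp or longer and 50 under the 3-fold rule. Depth limits single intervals, and 5189 of 6838 could not be tested for any mark.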

Other observations

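Element IDs are numbered along each chromosome, and some long intervals stand where the numbering skips. Of the 4021 intervals between elements, 451 lie between IDs that are not consecutive, and they are longer (median 2726 bp, against 556.5 bp for the others). All 23 of 10 kb or longer do, with a median of 16 skipped IDs. The longest, Chr1:14926963-14998919, skips 46 and had 1856 H3K9me2 and 2212 H3 reads in the culture, against 1604 and 519 in leaf, a H3K9me2 change of -1.62 (-1.79 to -1.45).

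Intervals between genes were split by what RefSeq places there, and the split also differs in length. In 103 of them (median 1578 bp) another RefSeq locus lies between the same neighbours, and these changed by 1.39 in H3K9me2 and 1.46 in H3K27me3, with H3 at -1.43. The 487 with no other locus (median 609 bp) changed by 0.58 and 0.72, with H3 at -0.18, and 36 could not be matched.

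The H3K27me3 change differed between classes of interval length, in which intervals within 300 bp of ATREP18 were left in. Those intervals changed by 3.59 and all others by 0.60, and their part in the length classes was not tested. Outside the runs, the summed H3K27me3 change was 1.38 in intervals of 200 to 500 bp and 1.06 at 500 to 1000 bp, and 0.65, 0.65 and 0.67 in the 3 longer classes. The H3K9me2 change was 0.07, 0.20, 0.06, -0.13 and -0.47 in the same order, and the value of -0.13 is 0.20 on totals without H3-dense lines. The chromosome 4 stretch from 1.6 to 2.4 Mb, where a heterochromatic knob is known in Columbia, held 168 intervals that changed by 0.22 in H3K9me2 and 0.88 in H3K27me3.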
